A study of Caenorhabditis elegans with 2 samples.

Results

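The regions described here are 690 binding peaks of the HMG-11 protein on the 5 autosomes of Caenorhabditis elegans that lay between protein-coding genes and away from their starts. A peak was a member when its summit lay outside every protein-coding gene body, more than 1000 bp from every protein-coding transcript start and more than 200 bp from every tRNA gene start (Ensembl annotation of WBcel235). They were 690 of 3260 autosomal peaks (21.2%) and of 4037 peaks in all. HMG-11 was mapped by chromatin immunoprecipitation and sequencing (ChIP-seq) in whole hermaphrodite worms at the L3 larval stage, 52 h after synchronisation by starving hatchlings at L1. All animals were of strain TH184, with the mutation unc-119(ed3) III and the integrated transgene ddIs101, a stable line in which HMG-11 carried GFP and FLAG at its C terminus. Sonicated chromatin was precipitated with an antibody to GFP in 2 biological replicates of 1 group, and no control library was analysed here. Whole worms mix all tissues, the labels do not give the promoter of the transgene, and the tagged protein was the only form precipitated.

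HMGA-type proteins are small chromatin proteins with AT-hooks, short basic motifs that sit in the minor groove where DNA is rich in A and T. In the compact worm genome most known regulatory sequence lies just upstream of coding genes, and elements farther away include enhancers and the promoters of noncoding RNAs. In Drosophila, GA/CT repeats are bound by the GAGA factor at promoters and other open chromatin.

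The sequence at the summits is shown first, because the strongest members were not A/T-rich and many carried the hexamer GAGAGA or its complement TCTCTC. Each line gives the flanking coding genes, the position on ce11 and 101 bases of the plus strand centred on the summit, with every match to that hexamer in capitals, from the RefSeq copy of WBcel235. The first 6 are the 6 strongest members, the seventh has the lowest A+T content among the 100 strongest members, and the last 2 have the highest.
W08G11.1/pptr-1, chrV:16356054-16356154: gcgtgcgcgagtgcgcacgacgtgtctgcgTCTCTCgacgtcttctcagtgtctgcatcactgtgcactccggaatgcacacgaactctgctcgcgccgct
ubc-8/Y94H6A.10, chrIV:2708746-2708846: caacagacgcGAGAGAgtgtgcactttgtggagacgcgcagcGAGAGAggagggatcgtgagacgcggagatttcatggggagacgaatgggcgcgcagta
F54F12.1/Y39E4B.6, chrIII:13062589-13062689: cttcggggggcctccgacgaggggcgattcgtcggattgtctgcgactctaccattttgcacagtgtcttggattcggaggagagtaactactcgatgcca
gldi-3/mtrr-1, chrII:9282939-9283039: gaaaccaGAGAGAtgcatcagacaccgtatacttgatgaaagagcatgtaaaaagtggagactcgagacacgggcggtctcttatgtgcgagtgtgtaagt
mtm-3/xbx-5, chrIII:3801440-3801540: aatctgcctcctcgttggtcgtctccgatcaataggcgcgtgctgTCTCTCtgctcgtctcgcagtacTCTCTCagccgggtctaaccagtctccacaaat
sup-26/R10E4.3, chrIII:4282301-4282401: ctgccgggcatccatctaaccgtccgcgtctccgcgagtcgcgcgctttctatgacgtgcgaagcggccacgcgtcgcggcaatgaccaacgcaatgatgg
T23F11.4/T23F11.11, chrIII:4666826-4666926: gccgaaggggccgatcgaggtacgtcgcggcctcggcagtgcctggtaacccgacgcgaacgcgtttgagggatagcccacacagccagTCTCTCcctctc
C17C3.24/ins-13, chrII:5543697-5543797: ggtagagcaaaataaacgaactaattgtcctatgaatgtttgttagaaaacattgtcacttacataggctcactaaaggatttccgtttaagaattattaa
H01G02.1/M117.1, chrIV:11809859-11809959: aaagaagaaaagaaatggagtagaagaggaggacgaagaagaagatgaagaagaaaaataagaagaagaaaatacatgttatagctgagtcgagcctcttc

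Among the first 6 of these sequences, A+T content ran between 35.6% at sup-26/R10E4.3 and 53.5% at gldi-3/mtrr-1. The hexamer was present in 4 of them and absent at F54F12.1/Y39E4B.6 and sup-26/R10E4.3. The sequence between T23F11.4 and T23F11.11 held 33.7% A+T. The A/T-rich pair had 69.3% between C17C3.24 and ins-13 and 64.4% between H01G02.1 and M117.1. The C17C3.24/ins-13 summit lay 40 bp from sls-2.2, a gene for an SL2 spliced leader RNA, which is joined to messages of downstream genes in operons.

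The strongest member lay 1417 bp upstream of pptr-1, which encodes a regulatory subunit of protein phosphatase 2A (chromosome V, 16356036 to 16356151). It ranked 40 among all peaks, with a signal of 304.1 in the pooled list, 124.9 in replicate 1 and 179.2 in replicate 2. The signal is the authors' own value for a region. Its scale differs between lists, so ranks are given beside it. This member ranked 49 in replicate 1 and 51 in replicate 2, so both replicates placed it near the top.

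The next member lay between ubc-8, of the ubiquitin-conjugating enzyme family, and Y94H6A.10 (chromosome IV, 2708740 to 2708873). Its signal was 296.1 in the pooled list, 134.1 in replicate 1 and 163.8 in replicate 2. The gap between F54F12.1 and Y39E4B.6 on chromosome III held members at 13062540 to 13062748, with a pooled signal of 291.4, and at 13068391 to 13068580, with 271.8. A member 2891 bp from gldi-3, in its gap with the methionine synthase reductase gene mtrr-1, had 286.4 (chromosome II, 9282969 to 9283094). The strongest member of chromosome I lay 2858 bp from chd-7, a chromodomain helicase gene, and inside linc-91 (4701205 to 4701660, pooled signal 274.5). The 20 strongest members, not all of them named here, lay on all 5 autosomes, with more of them on III than on any other.

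Of the 20 strongest members, 16 ranked within the first 200 regions of both replicates. The pair of lists disagreed most at the member between cpg-4 and fos-1, a Fos-type transcription factor gene, with 111.1 (rank 96) in replicate 1 and 57.7 (rank 2396) in replicate 2. Others of the 20 lay beside bet-1, a bromodomain protein gene, cmd-1, which encodes calmodulin, and ceh-48, a ONECUT homeobox gene. The ceh-48 member had a signal of 73.1 (rank 653) in replicate 1 and 176.9 (rank 57) in replicate 2. Of the 20, 12 were reported by the authors' caller as regions shorter than the common length of 456 bp, compared with 27 of all 690. The 27 shorter regions had a median pooled signal of 246.1 and the other 663 members 101.6.

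Pooled signals of the members ran between 67.9 and 304.1, with a median of 103.7 and quartiles of 82.8 and 141.2. The other 2570 autosomal peaks had a median of 105.7, and the 204 X peaks that met the same distance limits had 100.5. The medians were thus alike, while the highest signal was 304.1 at members, 529.4 at other autosomal peaks and 389.9 at X peaks. The peak list was itself the strongest part of 30000 pooled regions, 13.5% of them, and 12.7% of the 5423 autosomal regions at the same distances were peaks. The rule uses those calls, so nothing is read from them.

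All 690 members were also listed in both replicates, as were 99.6% of other autosomal peaks, all 204 X peaks and 70.8% of regions that were not peaks. Of the members, 514 (74.5%, 95% Wilson interval 71.1 to 77.6) overlapped one of the 4037 strongest regions in each replicate, compared with 76.5% of the other autosomal peaks (74.8 to 78.1) and 72.1% of the X peaks (65.5 to 77.8). The same was true of 14.6% of all 30000 pooled regions. The pooled signal that chose the peaks came from these same replicates, so this describes their spread and is no separate test. Another 10 members (1.45%) were among the strongest of neither replicate. Across the 690 members the signals of the 2 replicates had a Spearman correlation of 0.67, a description over regions of the same 2 libraries.

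**Figure D1:**
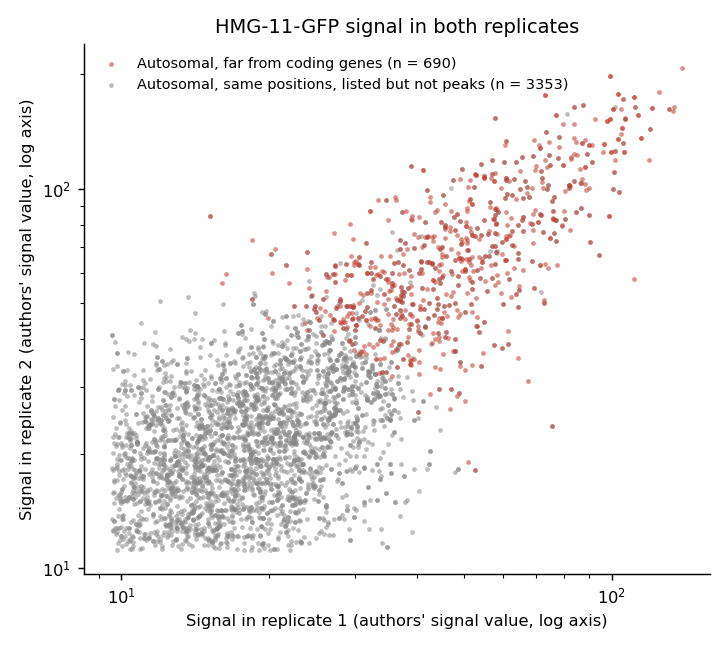
Signal of each autosomal region far from coding genes in replicate 1 (x axis) and replicate 2 (y axis), both the authors' signal value on log axes. Red points are the 690 members and grey points the 3353 listed regions at the same distances that were not peaks and were listed in both replicates. The members lie towards high signal in both.

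The summits of the members were poor in A and T. Median A+T content in 101 bp was 52.5% at members, with quartiles of 47.5% and 57.4%. It was 53.5% at the other autosomal peaks, 51.5% at the X peaks and 63.4% at the 4733 autosomal regions of the same distances that were listed but were not peaks. All 101-bp windows of the autosomes that met the distance limits had a median of 66.3%. Sets chosen anew from the strongest regions of each replicate alone gave a similar picture. The medians were 54.0% for 720 members and 64.4% for the regions that were not peaks in replicate 1. They were 53.5% for 691 members and 63.4% in replicate 2.

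The low A+T content of members was a feature of the centre of the region. It averaged 51.6% within 20 bp of the summit, 57.7% at 80 to 120 bp and 67.5% at 400 to 500 bp. Other autosomal peaks had 51.9%, 63.4% and 64.3% at the same distances, so their dip was narrower and their outer flanks lower. The X peaks had 51.6%, 56.7% and 67.4%. The regions that were not peaks held 63.0%, 64.7% and 67.2%. Summit sequence marked as repeat or low complexity in the reference had a median of 18.8% at members, 19.8% at other autosomal peaks, 4.95% at X peaks and 33.7% at the regions that were not peaks.

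**Figure D2:**
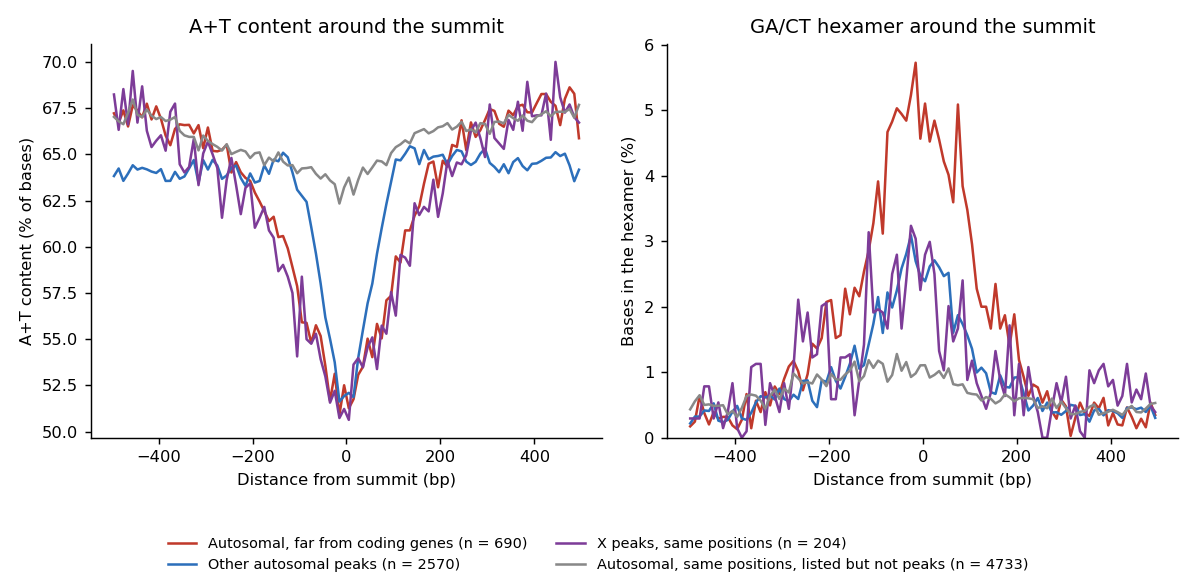
Mean A+T content (left, % of bases) and share of bases in GAGAGA or TCTCTC (right, %) in 10-bp bins against distance from the summit in bp, for 690 members (red), 2570 other autosomal peaks (blue), 204 X peaks at the same distances (purple) and 4733 listed autosomal regions that were not peaks (grey). At members A+T content falls to 51.6% and the hexamer covers 4.98% of bases within 20 bp of the summit.

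A/T words were correspondingly scarce. AAAAAA or TTTTTT occurred within 50 bp of the summit of 173 members (25.1%, interval 22.0 to 28.4), compared with 29.5% of other autosomal peaks (27.8 to 31.3), 22.5% of X peaks and 50.8% of regions that were not peaks (49.3 to 52.2). AAATTT, which is its own complement, occurred at 34 members (4.93%), compared with 11.2% of other autosomal peaks, 5.88% of X peaks and 26.1% of regions that were not peaks. AATATT stood at 2.61% of members, 5.99% of other autosomal peaks and 11.1% of regions that were not peaks. In all autosomal windows that met the distance limits these words had shares of 45.5% for AAAAAA, 28.7% for AAATTT and 12.5% for AATATT. The longest unbroken run of A and T had a median of 6 bp at members and 9 bp at regions that were not peaks.

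The word GAGAGA, searched on both strands, occurred at 310 members (44.9%, interval 41.3 to 48.7). It occurred at 27.9% of other autosomal peaks (26.2 to 29.6), 27.0% of X peaks at the same distances (21.3 to 33.4) and 11.6% of listed regions that were not peaks (10.7 to 12.5). Of all autosomal 101-bp windows that met the distance limits, 5.61% held it, and of X windows 4.52%. The sets were also chosen anew from the strongest regions of each replicate alone, which gave 720 members in replicate 1 and 691 in replicate 2. From replicate 1 the share was 40.6% at its members, below the interval of the pooled ones, 24.6% at other autosomal peaks and 23.9% at X peaks. From replicate 2 it was 43.7%, 27.9% and 23.8%. The members thus had the highest share among these sets whether taken from the pooled reads or from either replicate. Of the 2570 other autosomal peaks, 2159 lay within 1000 bp of a coding start. Those inside gene bodies farther from starts had 37.3% in the pooled list (32.6 to 42.2), an interval that overlapped that of the members. These intervals cover the counting of regions only. Overlapping regions share sequence. The difference was not tested across animals, because 2 replicates are too few for an exact test to reach significance.

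**Figure D3:**
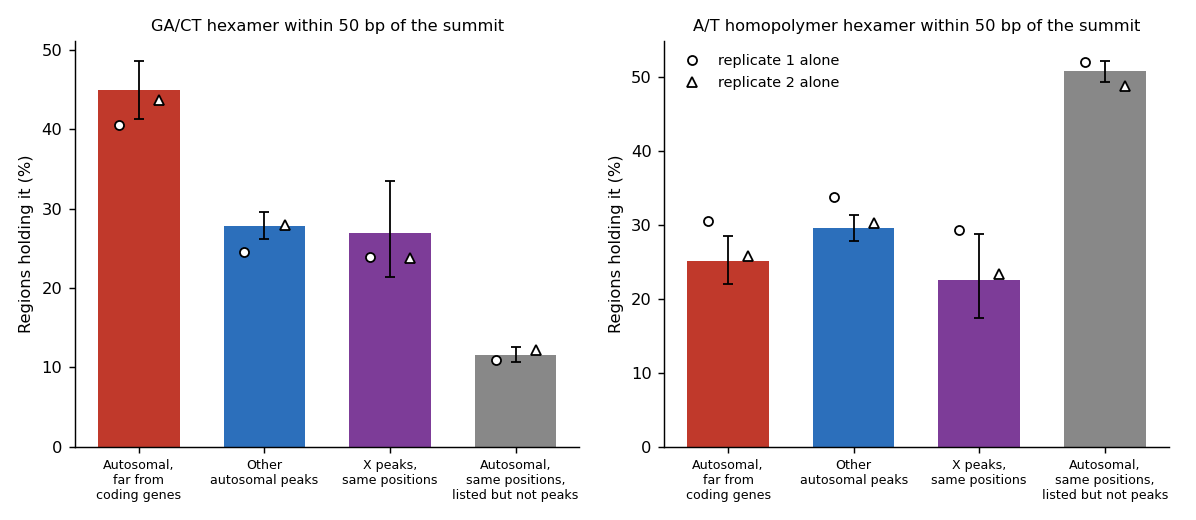
Share of regions (%) with GAGAGA or TCTCTC (left) and AAAAAA or TTTTTT (right) within 50 bp of the summit, with 95% Wilson intervals as error bars. The bars stand for 690 members, 2570 other autosomal peaks, 204 X peaks at the same distances and 4733 regions that were not peaks. Circles and triangles give the same share in sets chosen anew from replicates 1 and 2 alone. The members stand at 44.9% on the left and 25.1% on the right. The other autosomal peaks include 386 inside gene bodies farther from starts, which are not drawn apart and had 37.3% for the left panel.

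Longer repeats were found as well. An unbroken GA or CT repeat of at least 10 bp stood at 66 members (9.57%, interval 7.59 to 11.99), compared with 3.46% of other autosomal peaks, 2.94% of X peaks and 1.88% of regions that were not peaks. Among the other autosomal peaks, those inside gene bodies farther from starts had 7.77% (5.50 to 10.9), an interval that overlapped that of the members, and those within 1000 bp of a start 2.69%. The longest at a member was 45 bp. The member between Y48G9A.9 and ppk-2, a phosphatidylinositol phosphate kinase gene, held one of 19 bp in a summit window of 39.6% A+T (chromosome III, 2100830 to 2101285, pooled signal 258.1). GAGAGA covered 4.98% of bases within 20 bp of member summits, 3.21% at 80 to 120 bp and 0.309% at 400 to 500 bp.

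Among autosomal peaks in and near genes the hexamer was less frequent close to starts. It occurred at 26.2% of the 2159 autosomal peaks within 1000 bp of a coding start (24.4 to 28.1) and at 37.3% of the 386 inside gene bodies farther from starts (32.6 to 42.2). Among peaks between genes the share was 23.5% of 336 within 100 bp of a start, 19.9% of 722 at 100 to 300 bp and 32.8% of 497 at 300 to 1000 bp. Among members it was 48.5% of 291 at 1000 to 2000 bp, 43.4% of 311 at 2000 to 5000 bp and 39.7% of 78 at 5000 to 10000 bp. At the 10 members more than 10000 bp from any start it was 3 of 10. Shares were thus higher in every bin of members up to 10000 bp than in the 3 bins nearer to starts, and did not grow with distance beyond 1000 bp. The interval at 5000 to 10000 bp (29.6 to 50.8) overlapped that at 300 to 1000 bp (28.8 to 37.0). The share beyond 10000 bp (30%, interval 10.8 to 60.3) was not above the 32.8% at 300 to 1000 bp.

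Stronger members held the hexamer more often. In 4 groups by pooled signal the share was 31.4% in the weakest 172 members (24.9 to 38.7), 41.3% in the next 172, 52.0% in the next 173 and 54.9% in the strongest 173 (47.5 to 62.1). Median A+T content in the same order was 55.4%, 54.5%, 51.5% and 49.5%. Members with the hexamer had a median pooled signal of 114.5, and those without it 95.1. In replicate 1 these medians were 51.5 and 45.1, and in replicate 2 they were 71.0 and 59.9. Signal and A+T content had a Spearman correlation of −0.30 across the 690 members. It was −0.39 across other autosomal peaks, −0.26 across the X peaks and −0.20 across the regions that were not peaks. Base composition thus moved with signal in each of these sets, and its part in the signal was not tested.

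**Figure D4:**
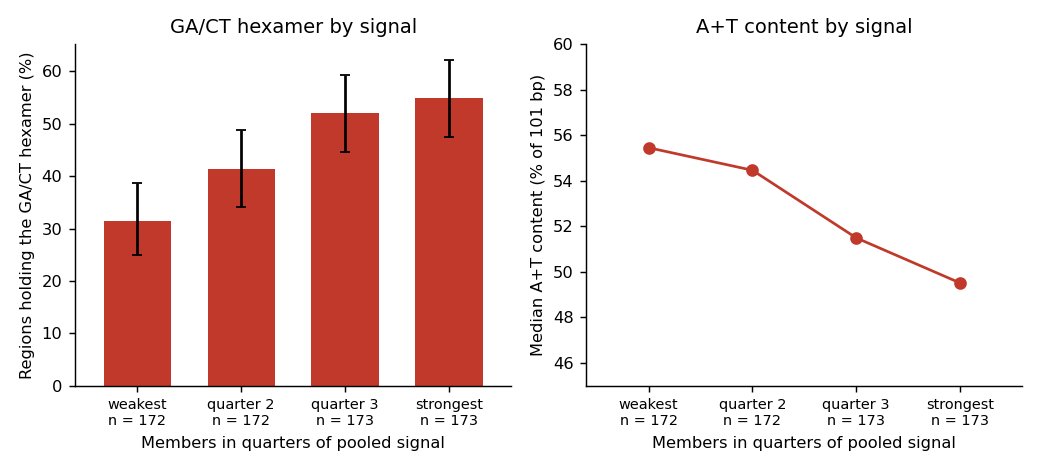
Members in 4 groups of pooled signal, weakest on the left. The left panel gives the share with GAGAGA or TCTCTC (%) with 95% Wilson intervals, 31.4% in the weakest and 54.9% in the strongest, and the right panel the median A+T content of 101 bp (%), 55.4% in the weakest and 49.5% in the strongest.

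When all 2080 words of 6 letters, each counted with its complement, were ranked by their share in members minus that in regions that were not peaks, GAGAGA came first and AGAGAG second (39.9% of members and 9.63% of regions that were not peaks). This ranking was made after the shares of single words had been seen. CGTCTC stood at 29.4% of members and 5.56% of regions that were not peaks, and is part of the longer word TGCGTCTC. That longer word, searched on both strands, stood at 122 members (17.7%, interval 15.02 to 20.7), compared with 10.5% of other autosomal peaks (9.42 to 11.8), 7.84% of X peaks and 2.13% of regions that were not peaks. Of all autosomal windows that met the distance limits, 0.602% held it. GAGAGA or TGCGTCTC stood at 350 members (50.7%) and 32.5% of other autosomal peaks. TGCGTCTC was not among the words planned for the search, and was counted in the same members that gave the ranking. Its shares are therefore a description and no separate support.

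Other searched words were rare. ATCGAT, the core of ONECUT sites, occurred at 37 members (5.36%, interval 3.92 to 7.30), compared with 5.68% of other autosomal peaks and 2.47% of regions that were not peaks. CGCGCG occurred at 3.48% of members, 5.53% of other autosomal peaks and 1.25% of regions that were not peaks. The GATA-type word TGATAA stood at 3.19% of members, 3.70% of other autosomal peaks and 7.37% of regions that were not peaks. Shares at members were 1.30% for TATATA, 2.32% for the E-box CACGTG, 1.88% for the forkhead-type GTAAACA, 0.435% for the AP-1-type TGACTCA and 2.03% for the telomere repeat TTAGGC. In all autosomal windows that met the distance limits the shares were 2.38% for ATCGAT, 0.655% for CGCGCG, 9.04% for TGATAA, 3.72% for TATATA, 1.42% for CACGTG, 1.29% for GTAAACA, 0.930% for TGACTCA and 2.88% for TTAGGC. A match is a description of letters, not a binding site.

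The members were unevenly spread over the autosomes. Chromosome I held 162, II 117, III 157, IV 147 and V 107. The sequence that meets the distance limits is 18.8 Mb, or 22.8% of the autosomes, and held 36.7 members per Mb. The other autosomal sequence held 40.3 peaks per Mb, and X sequence that meets the limits 36.7. Per Mb, chromosome I held 59.0 members, III 57.4, II 33.7, IV 30.3 and V 21.4. As a share of the peaks of each chromosome the members were more even, at 21.6% on I, 21.2% on II, 20.5% on III, 22.7% on IV and 19.6% on V. The share with GAGAGA ran between 41.4% on III and 47.5% on I, so no single autosome supplied it.

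The middle 50% of the autosomes (of each chromosome's length) held 368 members (53.3%, interval 49.6 to 57.0) and 46.5% of the sequence that meets the limits. Members were denser there than in the outer parts on every autosome, though only slightly on II. The densities were 64.7 and 54.0 per Mb on I, 34.3 and 33.2 on II, 59.7 and 55.2 on III, 39.6 and 23.8 on IV, and 27.7 and 15.5 on V. With the bodies and starts of every gene other than piRNAs avoided, 47.2% of 477 members lay in the middle 50%. The share of sequence in the middle 50% under those stricter limits is not given here, so the 47.2% cannot be set against it. Of the other autosomal peaks 56.1% lay in the middle 50%, and of the X peaks 39.7%. Worm autosomes have gene-dense centres and repeat-rich arms.

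**Figure D5:**
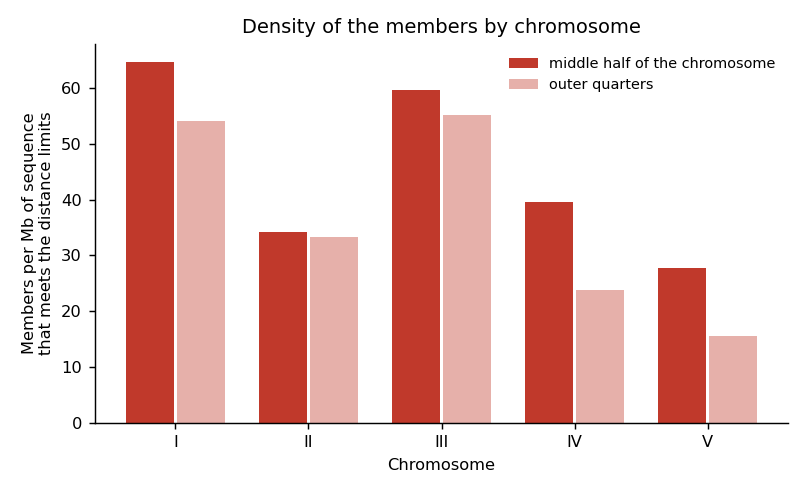
Members per Mb of sequence that meets the distance limits (y axis) on each autosome (x axis), in the middle 50% of the chromosome (dark) and the outer parts (light). Chromosomes I and III have the tallest bars, with 64.7 and 59.7 per Mb in their middle parts, and V the lowest, with 27.7.

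Members lay a median of 2278.5 bp from the nearest coding start, between 1001 and 19832 bp, in gaps between coding genes with a median length of 6277.5 bp. The regions that were not peaks lay at a median of 2830 bp in gaps of 8199 bp, and the X peaks at 2616.5 bp in gaps of 7745 bp. Just inside the limit were members at 1001 bp (pooled signal 159.7) and 1003 bp (97.1), and just outside it were autosomal peaks between genes at 998 bp, with signals of 183.3 and 136.0. At the tRNA limit, the nearest members lay 209 and 224 bp from a tRNA start (signals 90.0 and 98.8), and the nearest peaks left out at 171 and 166 bp (88.5 and 70.2). These signals all lay within the range of the members.

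The genes on either side of a member were mostly in the same orientation or pointed away from each other. Gaps with both genes on the same strand held 408 members (59.1%), gaps between diverging genes, with both 5′ ends facing the gap, 253 (36.7%, interval 33.2 to 40.3), and gaps between converging genes, with both 3′ ends facing it, 29 (4.20%, interval 2.94 to 5.97). Of all windows that met the limits, 53.8% lay in same-strand gaps, 29.7% in diverging and 16.6% in converging gaps. Regions that were not peaks stood at 55.9%, 37.3% and 6.85% in the same order, and X peaks at 55.9%, 34.3% and 9.80%. Members in converging gaps were thus few for the sequence available. Those 29 had a median A+T content of 47.5% and a median pooled signal of 122.1. The gene end nearest to the summit was a 3′ end at 268 members (38.8%, interval 35.3 to 42.5), 38.5% of regions that were not peaks and 39.7% of X peaks.

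The 690 members lay in 500 gaps, of which 131 held 2 or more members. The gap between F54F12.1 and Y39E4B.6 held 6 members, and that between Y49A3A.4 and unc-39, a Six-type homeobox gene, held 5, and neither was the gap with the most members. Another peak summit lay within 1000 bp of 127 members (18.4%, interval 15.7 to 21.5), compared with 16.8% of other autosomal peaks and 12.4% of regions that were not peaks. Of the members, 86 overlapped the region of another member, so these stand for fewer separate sites. No other peak summit lay within 10000 bp of 163 members.

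A noncoding gene lay within 200 bp of 164 members (23.8%, interval 20.7 to 27.1) and of 17.6% of other autosomal peaks (16.2 to 19.1). Among the latter, those inside gene bodies farther from starts had 29.5% (25.2 to 34.3). The share was 26.5% at X peaks (20.9 to 32.9) and 18.8% at regions that were not peaks (17.7 to 19.96). With piRNA genes left out it was 21.7% at members, 17.0% at other autosomal peaks, 26.0% at X peaks and 12.5% at regions that were not peaks. The general class ncRNA of the annotation was the most common near members, at 117 of them (17.0%). It stood at 14.2% of other autosomal peaks, 51 of 204 X peaks and 8.68% of regions that were not peaks. Long intergenic RNA genes (lincRNA) stood at 15 members (2.17%, interval 1.32 to 3.56) and at 0.272% of other autosomal peaks. The rule keeps only summits outside coding genes, so the contrast in lincRNA genes with other autosomal peaks follows in part from the rule. At regions that were not peaks the lincRNA share was 1.54% (1.23 to 1.93), an interval that overlaps that of the members. piRNA genes, the templates of germline small RNAs, stood at 14 members (2.03%), compared with 0.934% of other autosomal peaks and 6.76% of regions that were not peaks. A snoRNA gene lay near 14 members (2.03%), 2.14% of other autosomal peaks and 0.465% of regions that were not peaks. A pseudogene lay near 11 members (1.59%), 0.350% of other autosomal peaks and 93 of 4733 regions that were not peaks. A miRNA gene lay near 3 members (0.435%), 0.195% of other autosomal peaks and 0.296% of regions that were not peaks. For snRNA genes it was 2 members (0.290%), 0.700% and 0.0211% in the same order. Annotated antisense RNA genes were near no member, 0.428% of other autosomal peaks and 0.106% of regions that were not peaks. The antisense contrast with other autosomal peaks likewise follows in part from the rule, which left out summits inside coding genes. No member lay near an annotated rRNA gene.

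Among the 15 strongest members near a noncoding gene other than a piRNA, the summit lay inside linc-91 next to chd-7 and inside linc-128 next to cmd-1. Others lay 88 bp from C10F3.15 beside fos-1, 11 bp from the snoRNA gene F32E10.10 beside clec-180, and inside C17H12.31 beside ceh-48. Summits also lay inside F28C1.14 beside egl-10, which encodes a regulator of G-protein signalling, inside Y106G6E.7 in the gap between csnk-1 and lin-11, a LIM homeobox gene, and inside T19F4.6 beside unc-70, which encodes beta-spectrin. The egl-10 member had a signal of 227.9 in the pooled list, 103.0 in replicate 1 and 135.3 in replicate 2. These 15 belonged to several classes, most of them ncRNA. The 150 members near such a gene had a median pooled signal of 110.5, and 40.0% held GAGAGA, while the 526 with no noncoding gene within 200 bp had 102.8 and 46.6%.

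miRNAs are small RNAs that repress messages by base pairing. A miRNA gene lay within 1000 bp of 11 members (1.59%, interval 0.892 to 2.83), compared with 1.13% of other autosomal peaks, 4 of 204 X peaks (interval 0.765 to 4.93) and 0.972% of regions that were not peaks. The annotated hairpins near them were mir-42, mir-43, mir-44, mir-48, mir-52, mir-53, mir-79, mir-80, mir-241, mir-2218b and mir-8209. The nearest hairpin had the summit on its 5′ side at 10 of the 11 members, inside it at 1 and on its 3′ side at none. At other autosomal peaks within 1000 bp of a miRNA the summit was on the 5′ side at 20 of 29, at X peaks at 3 of 4, with the other inside the hairpin, and at regions that were not peaks at 28 of 46. With 11 members the share of 90.9% has an interval of 62.3 to 98.4. The members near mir-241 overlap each other, as do those near mir-52, so the 11 stand for fewer separate sites. The interval treats them as separate and is therefore too narrow.

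Members near mir-48 and mir-241, let-7 family miRNAs that time larval development, lay in the same gap, between Y49A3A.4 and unc-39. The summit near mir-48 was 214 bp upstream of the hairpin (chromosome V, 14364495 to 14364950), with a signal of 126.5 in the pooled list, 56.9 in replicate 1 and 70.4 in replicate 2. Those near mir-241 lay 378 and 586 bp upstream, with pooled signals of 165.4 and 108.2. Both overlapped the same replicate regions, with signals of 98.9 in replicate 1 and 84.8 in replicate 2. All 3 were therefore listed in both replicates, though a shared region cannot separate the 2 summits near mir-241.

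The mir-53 member lay 124 bp upstream of the hairpin and had 179.9 in the pooled list, 82.2 in replicate 1 and 101.7 in replicate 2. Upstream of mir-52, of the same miRNA family, lay 2 members at 302 and 77 bp, with pooled signals of 150.2 and 69.9 and a shared replicate region with 41.3 in replicate 1 and 111.7 in replicate 2. The mir-80 member lay 298 bp upstream (122.1 in the pooled list, 69.4 in replicate 1, 54.6 in replicate 2). A member 282 bp upstream of mir-42, the first hairpin of a run with mir-43 and mir-44, had 84.8 in the pooled list, 23.9 in replicate 1 and 61.2 in replicate 2. The mir-42 member ranked 7152 in replicate 1, outside the strongest 4037, and 2147 in replicate 2. The mir-79 member had 88.5 in the pooled list and lay between cbl-1 and lin-41, a gene of the same timing pathway as let-7. Of the 11 members near a miRNA, 6 lay in converging gaps, which held 29 of all 690. This count was made after the values were seen. It is not given here for other sets of regions, so it cannot be called particular to members. Both members near mir-52 are among the 6 and share replicate regions, so they may not be separate sites.

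The nearest coding genes were grouped by the start of their symbol alone, so a group can hold genes of other kinds. Genes named unc- or egl-, or for ion channels and neurotransmitter receptors, were nearest at 28 members (4.06%), 2.83% of regions that were not peaks and 1.12% of all autosomal coding genes. They included genes for release of transmitters or neuropeptides (unc-13, unc-31, unc-64) and others of different function, such as unc-45, a myosin chaperone, egl-9, a prolyl hydroxylase of the hypoxia response, and the homeobox gene unc-39. Transcription factors of other symbols, among them daf-16, fkh-7 and hlh-11, were nearest at 13 members (1.88%), 1.01% of regions that were not peaks and 0.516% of all coding genes. Nuclear hormone receptors were also nearest at 13 members (1.88%), with 1.90% and 1.43% in the same order. Genes with symbols of the chemoreceptor type, which took in the tyrosine kinase gene src-1, were nearest at 8 members (1.16%), 1.16% of regions that were not peaks and 7.74% of all coding genes.

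The remaining groups were small. Ribosomal protein genes were nearest at 6 members (0.870%) and 0.549% of regions that were not peaks. Genes named for collagens or for cuticle and body shape phenotypes were also nearest at 6 members, and at 1.12% of regions that were not peaks. C-type lectins were nearest at 5 members (0.725%) and 0.211% of regions that were not peaks, and F-box and MATH-BTB genes at 4 (0.580%) and 0.338%. Of all autosomal coding genes, C-type lectins were 1.37% and F-box and MATH-BTB genes 2.22%, both above the shares at members. Homeobox genes with ceh- symbols were nearest at 3 members (0.435%) and the homeobox group at 0.423% of regions that were not peaks, and neuropeptide genes at 3 (0.435%) and 0.655%. Heat shock genes were nearest at 2 members (0.290%) and 0.296% of regions that were not peaks. P450 or transferase genes were nearest at 1 member (0.145%) and 0.338% of regions that were not peaks, and major sperm protein genes at 1 and 0.0634%. Histone genes were nearest at none of the 690 and at none of the 4733 regions that were not peaks. Of all autosomal coding genes, 0.440% were in the ribosomal protein group, 0.933% in the collagen group and 0.342% in the homeobox group. The shares were 0.614% for neuropeptide genes, 0.267% for heat shock genes and 0.991% for P450 or transferase genes. They were 0.249% for major sperm protein genes and 0.394% for histone genes. Most groups held so few members that a difference of a few regions moves the share. A gene next to a long gap is nearest to more sequence, which the share over all genes does not take into account.

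At the low end of the list, the weakest members lay between snt-1 and egl-27 (chromosome II, 6831825 to 6832280) and between mec-8 and F46A9.1 (chromosome I, 9450062 to 9450517), with pooled signals of 67.98 and 67.92. The snt-1/egl-27 member had 33.7 in replicate 1 (rank 3770) and 35.6 in replicate 2 (rank 4945). The mec-8/F46A9.1 member had 29.3 (rank 4843) and 40.0 (rank 4112) in the same order. The next regions at these distances, which were not peaks, had 67.90 and 67.88, so the limit of the list cut through a continuous range of signal.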

How the data were processed

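The authors' deposited lists of the ce11 build were used: 30000 regions for each replicate, 30000 from pooled reads and 4037 peaks thresholded by the irreproducible discovery rate. The signal of each region is the authors' deposited narrowPeak value, made from the replicate alignments and a further file, per the submitters' file notes. Summits came from the deposited offset. The aligner, caller and scale of the signal were not given in the sources used here. Read depth is unknown, and intervals cover counting of regions only. The 4 lists were read with Python 3.11.15, pandas 2.3.3, numpy 2.4.6 and scipy 1.17.1. Genes came from Ensembl release 115 and sequence from RefSeq, both for WBcel235. Sequence windows reached 50 bp to each side of a summit, intervals are 95% Wilson intervals, and a match to a replicate needed 1 bp of overlap. No test was run, since 2 replicates are too few for an exact test to reach significance. The members and lists were chosen with earlier results of these data known. Named genes were those beside the 20 strongest and 2 weakest members, the strongest of each chromosome, the 15 strongest near noncoding genes, miRNAs within 1000 bp and the largest groups of members, and others by family were chosen after their values were seen. Of the calculations, the rule that places regions and the Wilson interval were tested on simulated data. Alternatives changed the distances, gene annotation, summit, window and overlap, and used each replicate alone. Lists of the ce10 build were not used here. One locus that the rule names is not reported here.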

Additional observations from a re-analysis of the deposited data

How the results depend on the processing

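Of 89 alternative values of the 8 main results, 64 stayed within the 95% interval of the main value or within 1.5 times the main count, as did 176 of 232 when the other searched words are included. The number of members was 399 with coding starts over 2000 bp away and 333 among the 2018 strongest peaks. Among those the share among the strongest of both replicates was 99.4%, median A+T content 50.5%, the share with GAGAGA 54.7%, that beyond a 3′ end 42.9% and that with another peak within 1000 bp 9.91%, with fewer peaks by construction. With starts over 2000 bp away 43.9% lay beyond a 3′ end. With the bodies and starts of every gene other than piRNAs avoided, 47.2% lay in the middle 50%, 2.94% near a noncoding gene and 15.5% near another peak. Each replicate alone gave 691 to 720 members, a median A+T content of 53.5% to 54.0%, 40.6% to 43.7% with GAGAGA and 22.3% to 22.5% near another peak. Windows of 100 bp on either side gave 53.7% A+T and 65.4% with GAGAGA, and 25 bp gave 51.0% and 25.7%. The share among the strongest of both replicates was 69.3% with overlap of at least 50% of each region and 62.9% with summits within 100 bp. The middle 40% held 42.2%. Within 500 bp of a noncoding gene lay 31.7%, and within 2000 bp of another peak 38.8%. Alternatives added after the data were seen were members alone in 1000 bp, windows under 20% soft-masked (50.5% A+T) and RefSeq genes, under which 675 members were kept. No paired analysis was possible because the samples formed 1 group and the values came from no test, and sets of regions were set side by side within each replicate. Regions weaker than those listed were not seen, and the lists give no read depth.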
